A study of Mus musculus with 12 samples.

Results

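Of the 10 genes of the hexosamine pathway examined in sorted HSCs, Gnpda2 had no read in any of 6 Pon2-/- samples. It had 400 to 2234 reads in each of 6 WT samples. For each of the other 9 genes the samples of the genotypes overlapped and the test was not passed. Of all tested genes, only 0.633% had genotypes free of overlap and 0.203% passed the test, so the 9 genes were near these shares. Among the 9, only Ogt and Nagk had a 95% interval of the fold change within a halving and a doubling. The counts of Gnpda1, whose product catalyzes the same reaction as that of Gnpda2, were 35.7 ± 18.8 CPM (counts scaled to 1000000 per library) in WT and 35.9 ± 16.3 CPM in Pon2-/- mice (SD, n = 6 each). The 10 genes were named by symbol, out of 49585 gene identifiers in the count tables. Gnpda2 was chosen by its counts in these same samples, so its values are described here without a test, and the other 9 were taken for their place in the pathway. The question was whether Gnpda1 or another enzyme differs where Gnpda2 is lost.

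RNA was sequenced from bone marrow cells of WT and Pon2-/- mice at an age of 10 to 14 weeks, both with the strain label C57BL/6J, and the WT mice came from a commercial breeder. Pon2-/- mice carry a gene trap vector with β-geo and flanking loxP sites in intron 2 of Pon2, the gene of the antioxidative enzyme paraoxonase 2. Differences that go with the genotype and differences that go with the origin of the mice cannot be told apart in these samples. Cells were sorted as Lin-, Sca1+, ckit+, CD135- and CD150+, labelled LT-HSCs and described in the study's methods as a mixture with MPP2 cells, and are called HSCs here. Of each mouse, 8 wells of 10 cells were processed with Smart-seq2, and 1 count table per mouse was analysed here.

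Total counts were 12967791 to 24228280 in WT and 14671353 to 23122382 in Pon2-/- samples. All 8 HSC markers (Kit, Ly6a, Slamf1, Procr, Hlf, Mecom, Fgd5 and Meis1) had counts in every sample, with a summed level of 1615 to 2094 CPM in WT and 1600 to 2066 CPM in Pon2-/- mice. Flt3, which encodes the gated-out CD135, was at 4.59 to 49.3 CPM in WT and 26.7 to 65.0 CPM in Pon2-/- mice. The summed granulocyte and monocyte markers ranged from 1.35 to 8190 CPM in WT and from 68.6 to 13385 CPM in Pon2-/- mice, B lineage markers from 25.5 to 319 CPM and from 58.8 to 478 CPM, T lineage markers from 0.042 to 39.7 CPM and from 13.5 to 57.7 CPM, erythroid markers from 6.11 to 43.2 CPM and from 0.733 to 25.3 CPM, and megakaryocyte markers from 137 to 185 CPM and from 76.3 to 213 CPM, with Cd3e at 0 in all samples. The median sum of the erythroid markers was 39.6 CPM in WT and 8.55 CPM in Pon2-/- mice. Most of it in WT was Hbb-bt, a β-globin gene (mean 25.5 CPM in WT and 0.193 CPM in Pon2-/- mice). Hbb-bt was at 6.11 to 38.1 CPM in WT and 0 to 1.11 CPM in Pon2-/- mice (edgeR, adjusted p = 0.265). Klf1 went the other way, with means of 0.544 CPM in WT and 6.73 CPM in Pon2-/- mice. The means were 1.34 and 1.23 CPM for Hba-a1, 1.00 and 0.635 CPM for Hba-a2, and 3.85 and 1.93 CPM for Hbb-bs. The part of these markers in the results was not tested. Genes of the Y chromosome had at most 1 count in WT replicates 1 to 3 and Pon2-/- replicates 1 and 2, and 2863 to 5890 counts in the other samples, while the labels give no sex. The targeted gene Pon2 was at 56.4 to 202 CPM in WT and 1.16 to 33.1 CPM in Pon2-/- mice. Although these ranges did not overlap, Pon2 did not pass the test (log2 fold change -2.13, SE 0.57, edgeR, adjusted p = 0.586).

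The hexosamine pathway turns fructose 6-phosphate, an intermediate of glycolysis, into UDP-N-acetylglucosamine (UDP-GlcNAc), the sugar donor for glycoproteins, glycolipid anchors, proteoglycans and O-GlcNAc on nuclear and cytosolic proteins. Gfpt1 and Gfpt2 encode the enzymes of its first and rate-limiting step, which makes glucosamine 6-phosphate, and Gnpda1 and Gnpda2 encode deaminases that return it to fructose 6-phosphate and ammonia. Gnpnat1, Pgm3 and Uap1 complete the path to UDP-GlcNAc, Nagk and Amdhd2 act on N-acetylglucosamine from breakdown, and Ogt uses UDP-GlcNAc. O-GlcNAc is known to act in hematopoietic stem cell maintenance, where Ogt is required.

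Gnpda2 (ENSMUSG00000029209.15) spans 69573108 to 69592340 of chromosome 5 and is transcribed from the minus strand (GRCm38). Ogt (ENSMUSG00000034160.13), the member with the most counts, spans 101640060 to 101684351 of chromosome X on the plus strand. The bases just before both gene starts are shown because these are the member without counts in Pon2-/- HSCs and the member with the most counts, and because they share a stretch of letters. Both are RefSeq reference sequence of GRCm38.p6, printed 5′ to 3′ on the gene's strand, and the capitals mark GCATGCGC, a motif of the kind bound by the transcription factor NRF1.

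Gnpda2, chr5:69592341-69592554, minus strand: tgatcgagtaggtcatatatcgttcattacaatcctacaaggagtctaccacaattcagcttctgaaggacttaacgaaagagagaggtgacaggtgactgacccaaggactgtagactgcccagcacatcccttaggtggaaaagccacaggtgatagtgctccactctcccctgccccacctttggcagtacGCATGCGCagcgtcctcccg
Ogt, chrX:101639801-101640059, plus strand: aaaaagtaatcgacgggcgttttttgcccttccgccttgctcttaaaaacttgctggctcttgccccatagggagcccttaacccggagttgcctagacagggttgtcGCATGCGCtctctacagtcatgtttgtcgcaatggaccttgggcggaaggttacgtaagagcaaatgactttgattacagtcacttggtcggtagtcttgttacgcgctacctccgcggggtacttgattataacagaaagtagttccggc

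The motif ended 12 bases before the annotated start of Gnpda2 and 143 bases before that of Ogt. A search of both strands for GCATGCGC, CACGTG and CCAAT was made in windows of 300 bases, 250 before and 50 after a start, and 8 of the 10 members had such a window in RefSeq. These letters were chosen after the sequences were seen. GCATGCGC was in the window of Gnpda2, in the Ogt window from 101639801 to 101640100 and in 2.71% of all 32851 windows. The other Ogt window, from 101639968 to 101640267, did not hold it. CACGTG, the E-box letters, was in the window of Amdhd2 and in 7.15% of all windows, and CCAAT was in those of Gfpt1, Gfpt2, Pgm3, Uap1 and Amdhd2 and in 37.4% of all. The Gnpda2 window held 11 CpG, the other windows of members held 14 to 38, and the median window held 7. A match of letters is a description and no binding site.

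The counts of Gnpda2 in WT replicates 1 to 6 were 2234, 1157, 1032, 1240, 858 and 400, which is 94.8, 61.1, 41.6, 97.1, 62.3 and 24.6 CPM. In all 6 Pon2-/- replicates the count was 0, which by a limit of 3 counts per library allows up to 0.129 to 0.208 CPM. Every WT sample therefore lay above every Pon2-/- sample, and the levels within WT spanned 24.6 to 97.1 CPM. With 6921 counts over the WT group and an upper limit of 3 counts for the 6 Pon2-/- samples together (0.0272 CPM), Gnpda2 was at least 2308-fold lower in Pon2-/- HSCs, and at least 1822-fold lower when any 1 sample was left out. These limits cover counting error only. In samples of pooled cells, a smaller number of cells with a transcript and less of it per cell cannot be told apart.

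The last exons of Gnpda2 overlap Guf1, which encodes a mitochondrial translation factor and lies on the opposite strand from 69556923 to 69575973. They share 1022 bases, or 14.9% of the exon length of Gnpda2. In an alignment of transcripts, 956 bases, or 50.5% of a Gnpda2 transcript, were 100% identical to Guf1. Smart-seq2 reads carry no strand, so reads of the shared bases cannot be assigned to either gene. Guf1 itself was at 61.7 ± 19.0 CPM in WT and 68.3 ± 26.6 CPM in Pon2-/- mice (SD, n = 6 each), with ranges of 39.4 to 92.0 CPM and 39.2 to 115 CPM that overlap. Its log2 fold change was 0.15 (SE 0.31, adjusted p = 1.0). The gene beside and partly over Gnpda2 was thus counted in all 12 samples, and the 95% interval of its log2 fold change was -0.52 to 0.81.

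Of 23 annotated genes within 1 Mb of Gnpda2, 7 had a count and Guf1 alone passed the filter on low counts. A gene was called where it differed more than 2-fold with an FDR below 0.05, which 0.203% of all tested genes did (0.076% in the lower direction), and Guf1 did not. The nearest tested gene on the other side was Commd8, 2564235 bases away, which was at 84.0 ± 25.5 CPM in WT and 64.0 ± 30.3 CPM in Pon2-/- mice (SD, n = 6 each, log2 fold change -0.39, SE 0.32, adjusted p = 1.0). Among the untested neighbours, chosen after their values were seen, Yipf7 had 29 counts over WT and 1 over Pon2-/- samples, and 3110031N09Rik, an unconfirmed transcript between Yipf7 and Guf1, had 1 and 126. These are group totals, which do not show whether 1 sample holds most of the counts. Neither gene passed the filter, and with no filter beyond 1 read 0 of the 7 neighbours were called.

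The pattern of Gnpda2, with a count in every WT and in no Pon2-/- sample, was shared by 8 other genes out of 25444 genes with a count, so that the 9 genes are 0.0354% of these. The 5 of them with the highest WT levels were Htatip2 (37.6 CPM), Trp53inp2 (8.28 CPM), mt-Nd3 (7.57 CPM), Gm26896 (4.09 CPM) and Gm16523 (3.96 CPM), all below the 63.6 CPM of Gnpda2. They lie on chromosomes 7, 2, M, 10 and 2 and thus not beside Gnpda2. Trp53inp2 and Gm16523 had a single count in 1 and 2 of the WT samples. Reads of mt-Nd3 can also come from nuclear copies of mitochondrial DNA, so its counts are uncertain.

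**Figure D1:**
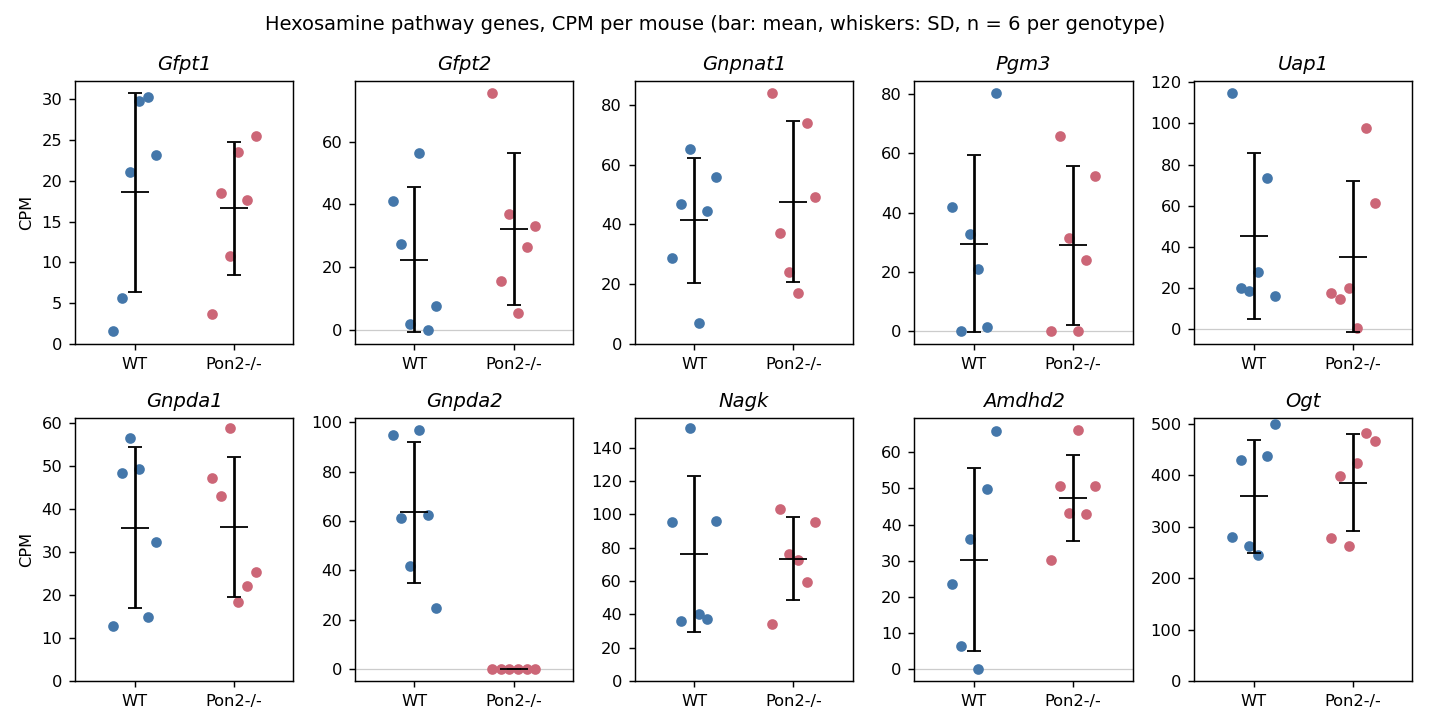
CPM of the 10 members per mouse (y axis, linear, a separate scale per gene) for WT (blue) and Pon2-/- (red), 1 point per mouse, with the mean (horizontal bar) and SD (whiskers, n = 6). Gnpda2 was at 24.6 to 97.1 CPM in WT and at 0 in all Pon2-/- mice, while the points of the genotypes overlapped for each of the other 9 genes.

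Gnpda1 (ENSMUSG00000052102.14, chromosome 18 from 38327535 to 38339003, minus strand) is the other deaminase gene. Its longest open reading frame is 75.7% identical to that of Gnpda2 over 831 bases, with at most 20 identical bases in a row. Gnpda1 was at 12.8, 48.3, 56.7, 49.4, 14.8 and 32.5 CPM in WT replicates 1 to 6. It was at 47.4, 43.0, 59.0, 18.4, 22.1 and 25.4 CPM in Pon2-/- replicates 1 to 6. Low samples (below 26 CPM) and high samples (above 32 CPM) were found in both genotypes, and the ranges overlapped almost fully. The log2 fold change was 0.01 (SE 0.48, edgeR's quasi-likelihood test, adjusted p = 1.0), and an exact permutation test (two-sided, on log2 CPM) gave p = 0.842 (0.997 adjusted over all tested genes). The 95% interval of the fold change was 0.488 to 2.06, which reaches just beyond a halving and a doubling. Gm8615, a processed pseudogene 99.2% identical to a Gnpda1 transcript over 247 bases, had 1 count in each group.

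The deaminase genes were also added up, with CPM divided by the length of each gene's annotated exons in kb. The sum was 11.1 to 25.6 CPM per kb in WT (17.6 ± 5.32, SD, n = 6) and 4.28 to 13.7 CPM per kb in Pon2-/- mice (8.32 ± 3.77, SD, n = 6), where all of it was Gnpda1. Of the WT samples, 4 lay above all Pon2-/- samples. Gnpda2 made up between 31.6% (WT replicate 3) and 82.3% (WT replicate 1) of the WT sum, with a median of 49.7%. The ratio of Pon2-/- to WT means was 0.474, and it holds the Gnpda2 values that chose the gene, so no test is given. The exons of Gnpda2 sum to 6862 bases, and its longest protein-coding transcript has 1894. With that transcript's length for each gene, an alternative chosen after seeing the lengths, the sums were 49.2 ± 15.5 and 15.7 ± 7.11 CPM per kb (SD, n = 6 each), a ratio of 0.319, and all 6 WT samples lay above all Pon2-/- samples. The counts were still those of all exons. The length of Gnpda1 fell less, from 4311 to 2289 bases, so this choice gives Gnpda2 more weight in the sum. The ratio and the number of WT samples above all Pon2-/- samples thus depend on the length used.

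**Figure D2:**
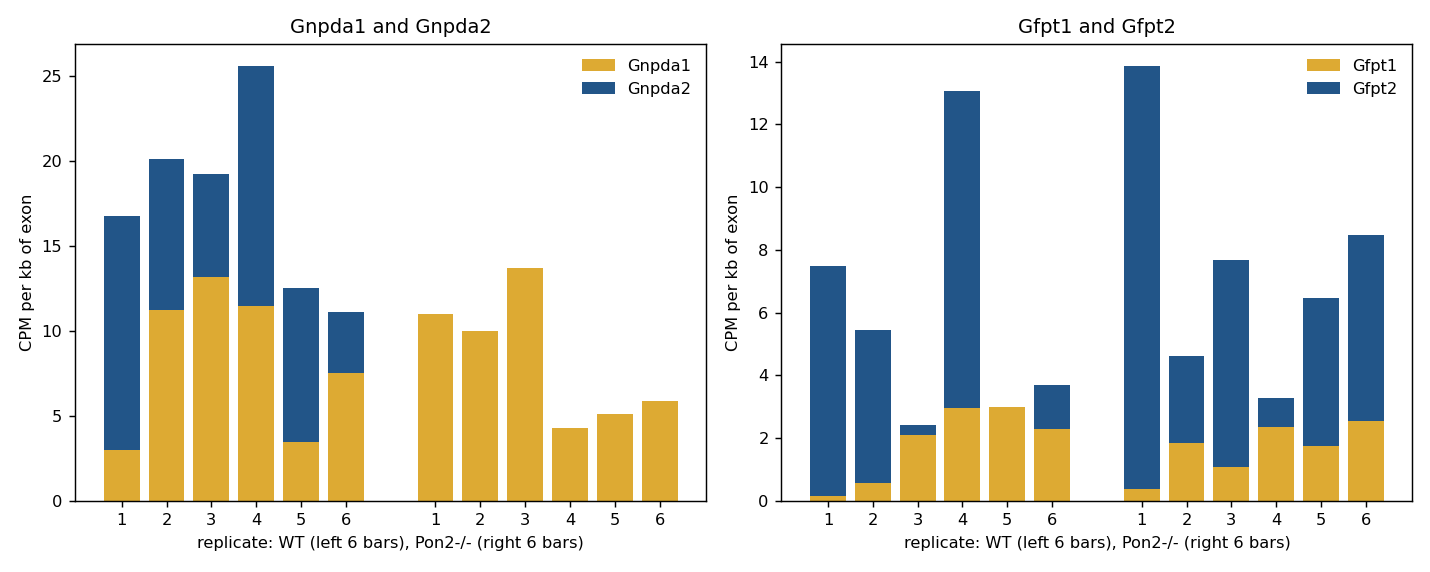
Stacked CPM per kb of exon (y axis) of both deaminase genes (left, Gnpda1 yellow and Gnpda2 blue) and both Gfpt genes (right, Gfpt1 yellow and Gfpt2 blue), 1 bar per mouse, WT on the left and Pon2-/- on the right of each panel. The deaminase bars of Pon2-/- mice hold only Gnpda1 (4.28 to 13.7 CPM per kb), and those of WT mice reach 11.1 to 25.6 CPM per kb, while the Gfpt bars of both genotypes overlap.

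Of the 9 members besides Gnpda2, 0 passed both thresholds with edgeR, compared with 0.203% of the 11848 tested genes, and 0 had an unadjusted p below 0.05, compared with 3.13%. DESeq2 also called 0 of them, compared with 1.77% of the genes it tested. None of the 9 had genotypes free of overlap in CPM, which 0.633% of tested genes had. All 10 members passed the filter on low counts. The median log2 fold change of the 9 was 0.01, compared with -0.01 over all tested genes, and 5 were above and 4 below 0. Adjusted p was 1.0 for each of them.

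The rate-limiting step was counted at low and uneven levels. Gfpt1 (chromosome 6 from 87042846 to 87092197) was at 1.66 to 30.2 CPM in WT (median 22.1) and 3.71 to 25.5 CPM in Pon2-/- mice (median 18.1), with a log2 fold change of -0.16 (SE 0.75). Gfpt2 (chromosome 11 from 49794178 to 49838613) was at 0 to 56.5 CPM in WT (median 17.6) and 5.27 to 75.5 CPM in Pon2-/- mice (median 29.8), with a log2 fold change of 0.52 (SE 1.08). The share of Gfpt2 in the summed level per kb was 0% in WT replicate 5 and 97.8% in WT replicate 1, and 28.7% to 97.3% in Pon2-/- samples. Which of both genes was the higher one thus differed between mice of the same genotype. Their sum was 5.85 ± 3.99 CPM per kb in WT and 7.40 ± 3.70 CPM per kb in Pon2-/- mice (SD, n = 6 each). The SD of Gfpt2 exceeded its mean in WT, where it was 103% of it.

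The following steps showed the same unevenness. Gnpnat1, whose product acetylates glucosamine 6-phosphate and so competes with the deaminases for it, was at 7.05 to 65.1 CPM in WT (median 45.7) and 17.1 to 84.1 CPM in Pon2-/- mice (median 43.2), with a log2 fold change of 0.20 (SE 0.52). It lies on chromosome 14 from 45376334 to 45404913 and shares 83.5% of its exon length with other genes, mostly Styx on the opposite strand, so its counts are uncertain. Pgm3, on chromosome 9, had 987, 0, 812, 268, 17 and 1310 counts in WT replicates 1 to 6. In Pon2-/- replicates 1 to 6 it had 1, 1525, 553, 1, 515 and 873 counts. Samples with at most 17 counts of Pgm3 thus occurred in both genotypes, and the log2 fold change was -0.03 (SE 1.44). Dop1a, on the other strand, covers 28.3% of its exon length.

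Uap1, which encodes the pyrophosphorylase of the last step to UDP-GlcNAc, was at 15.8 to 115 CPM in WT (median 23.7) and 0.277 to 97.6 CPM in Pon2-/- mice (median 18.6), with a log2 fold change of -0.36 (SE 0.89). It was high in WT replicates 1 and 5 and Pon2-/- replicates 5 and 6, at 61.4 CPM or more, and at 27.8 CPM or less in the other 8 samples. No genotype therefore held all of its high samples.

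Among the salvage genes, Nagk, the kinase of free N-acetylglucosamine (chromosome 6 from 83794982 to 83804018), was at 36.1 to 152 CPM in WT (median 67.8) and 33.9 to 103 CPM in Pon2-/- mice (median 74.3), with a log2 fold change of -0.05 (SE 0.40). Amdhd2, the deacetylase that makes glucosamine 6-phosphate from its acetylated form (chromosome 17 from 24155833 to 24163766), was at 23.6, 6.23, 36.0, 0, 49.9 and 66.0 CPM in WT replicates 1 to 6. In Pon2-/- replicates 1 to 6 it was at 30.3, 50.8, 43.3, 66.3, 42.9 and 50.8 CPM. The spread was wider in WT, where the SD was 83.9% of the mean, than in Pon2-/- HSCs, where it was 25.1%, and this difference in spread was not tested. The log2 fold change of 0.65 (SE 0.89) was the largest among the 9, with an exact permutation test p = 0.13 (0.915 adjusted over all tested genes). Without WT replicate 4, which had no count, the difference of mean log2 CPM was 0.71 in place of 2.05 (exact permutation test, p = 0.247). Without WT replicate 6 or WT replicate 5 the exact permutation test gave an unadjusted p = 0.0195 or 0.0498, with 0.763 and 0.89 after adjustment.

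Ogt, the enzyme that places O-GlcNAc on proteins, had the most even counts of the 10 members. It was at 245 to 499 CPM in WT (median 355) and 263 to 483 CPM in Pon2-/- mice (median 412), and the highest sample was 2.04 times the lowest over all 12. The log2 fold change was 0.10 (SE 0.22), with a 95% interval from -0.37 to 0.58, so that the interval of its fold change, 0.774 to 1.49, lies within a doubling and a halving. For Nagk the interval of the log2 fold change, -0.91 to 0.81, also lay within 1 on either side, whereas for Gnpda1 and the other 6 genes it did not. The bound of these 6 farthest from 0 was between 1.33 for Gnpnat1 and -3.12 for Pgm3. For genes such as Pgm3, Gfpt2, Uap1 and Amdhd2, a change of several-fold therefore lay within the 95% interval, with 6 mice per genotype.

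**Figure D3:**
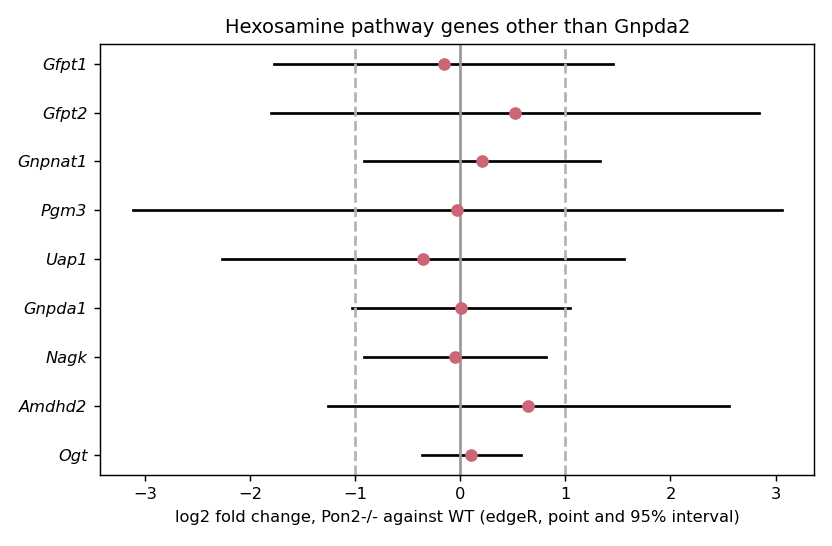
Log2 fold change of Pon2-/- against WT HSCs (x axis, edgeR) for the 9 members other than Gnpda2, in pathway order from Gfpt1 to Ogt, with the point estimate and its 95% interval (line), and dashed lines at the call threshold of 1 on either side. All 9 intervals include 0, the narrowest is that of Ogt (-0.37 to 0.58) and the widest that of Pgm3 (-3.12 to 3.06).

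Levels of different genes were compared per kb of exon. In WT HSCs and over all exon bases, Ogt was highest (44.6 ± 13.6 CPM per kb, SD, n = 6), followed by Nagk (16.3 ± 10.0), Uap1 (11.2 ± 10.1), Gnpda2 (9.26 ± 4.18), Gnpnat1 (8.74 ± 4.38), Gnpda1 (8.29 ± 4.35), Amdhd2 (8.28 ± 6.95), Pgm3 (6.58 ± 6.68), Gfpt2 (4.01 ± 4.14) and Gfpt1 (1.84 ± 1.21). No 2 neighbours in this order were free of overlap between their samples, although Ogt was above Nagk within each of the 6 WT samples. The order depends on the length used, and it divides by all exon bases although reads of bases shared with another gene may not be counted. Over only the 783 exon bases of Gnpnat1 shared with no other gene, an alternative chosen after seeing the overlaps, its level was 52.8 ± 26.5 CPM per kb in WT and 60.8 ± 34.4 CPM per kb in Pon2-/- mice (SD, n = 6 each), above the mean of Ogt in both. With the length of the longest protein-coding transcript, Gnpda2 came after Ogt and Nagk, at 33.6 ± 15.1 CPM per kb, and Gnpda1 was at 15.6 ± 8.20 CPM per kb (SD, n = 6 each).

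In Pon2-/- HSCs and over all exon bases, Ogt was again highest (47.9 ± 11.7 CPM per kb, SD, n = 6) and did not overlap with Nagk (15.7 ± 5.35), and Gfpt1 (1.65 ± 0.81) was the lowest member with counts. Amdhd2 (12.95 ± 3.25), Gnpnat1 (10.1 ± 5.69), Uap1 (8.76 ± 9.18), Gnpda1 (8.32 ± 3.77), Pgm3 (6.45 ± 5.99) and Gfpt2 (5.75 ± 4.33) lay between them, and their samples overlapped from each gene to the next. The order from second to ninth place therefore rests on means whose samples overlap.

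Genes that supply or use the pathway's metabolites were described in 5 further lists of 48 genes, of which 41 passed the filter on low counts. Of these, 0 were called with edgeR (0.203% of all tested genes) or DESeq2 (1.77%), and 2 had an unadjusted p below 0.05, which 3.13% of all tested genes had. The median log2 fold change was -0.06 (19 above and 22 below 0), compared with -0.01 over all tested genes. The lists thus held no gene that passed the thresholds.

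Of the genes that supply fructose 6-phosphate (4 of 5 tested), Gpi1, whose product interconverts glucose 6-phosphate and fructose 6-phosphate, was at 284 to 386 CPM in WT (352 ± 37.2, SD, n = 6) and 319 to 633 CPM in Pon2-/- mice (491 ± 118, SD, n = 6). Its 2 genotype ranges overlapped, and 5 of 6 Pon2-/- samples were above all WT samples. The log2 fold change was 0.48 (SE 0.16, unadjusted p = 0.0107 and adjusted p = 1.0 with edgeR), below the fold change threshold. Of amino sugar and sialic acid metabolism (9 of 9 tested, 6 above and 3 below 0), the gene with the smallest p was Npl, a sialic acid lyase that yields N-acetylmannosamine, at 62.3 ± 31.4 and 94.2 ± 33.7 CPM (SD, n = 6 each, log2 fold change 0.60, SE 0.38, adjusted p = 1.0). Uap1l1, a paralog of Uap1 and the most abundant of this list, was at 118 ± 37.0 and 149 ± 55.5 CPM (SD, n = 6 each, log2 fold change 0.34, SE 0.29).

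Mgea5, the O-GlcNAcase that removes what Ogt adds, was at 30.3 to 105 CPM in WT and 29.3 to 82.7 CPM in Pon2-/- mice (log2 fold change -0.17, SE 0.35, adjusted p = 1.0), and Eogt, the O-GlcNAc transferase of the endoplasmic reticulum, did not pass the filter. Both genes of the O-GlcNAc cycle, Ogt and Mgea5, thus had overlapping ranges. Among UDP-GlcNAc transporters and transferases (20 of 24 tested, 9 above and 11 below 0), Mgat4b, which encodes a branching enzyme of N-glycans, was at 33.2, 40.2, 34.9, 10.2, 42.1 and 37.5 CPM in WT replicates 1 to 6. In Pon2-/- replicates 1 to 6 it was at 18.3, 1.21, 4.78, 21.98, 5.32 and 14.8 CPM. All WT samples but replicate 4 lay above all Pon2-/- samples, with a log2 fold change of -1.58 (SE 0.70, unadjusted p = 0.0404 and adjusted p = 1.0 with edgeR). Gcnt2, the most abundant of this list, was at 325 ± 68.5 and 329 ± 93.8 CPM (SD, n = 6 each).

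Of the genes that release N-acetylglucosamine in lysosomes or the cytosol (7 of 8 tested, 2 above and 5 below 0), Hgsnat, a lysosomal acetyltransferase of heparan sulfate breakdown, was at 40.4 ± 25.1 and 54.6 ± 23.2 CPM (SD, n = 6 each, log2 fold change 0.44, SE 0.49). Hexa, a β-hexosaminidase subunit and the most abundant of the list, was at 144 ± 23.4 and 126.7 ± 45.0 CPM (SD, n = 6 each, log2 fold change -0.18, SE 0.24). For both, the adjusted p was 1.0 and the ranges overlapped.

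**Figure D4:**
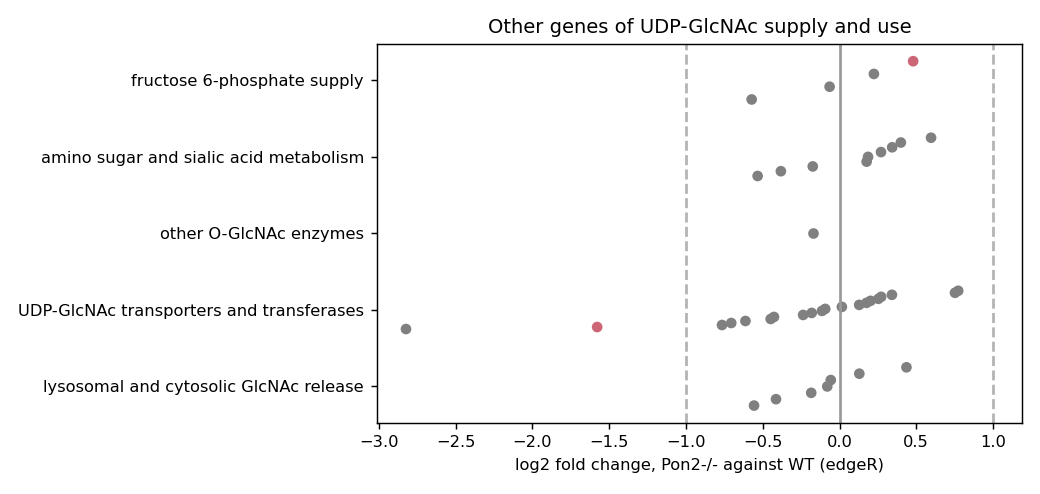
Log2 fold change of Pon2-/- against WT HSCs (x axis, edgeR) for the 41 tested genes of 5 lists around the hexosamine pathway, 1 point per gene, in red where the unadjusted p was below 0.05, with dashed lines at the call threshold of 1 on either side. The 2 red points are Gpi1 (0.48) and Mgat4b (-1.58), and the point farthest to the left is Ext1 (-2.82, unadjusted p = 0.167), a heparan sulfate polymerase gene.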

How the data were processed

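RNA-seq libraries (Smart-seq2, NextSeq) of HSCs from 6 WT and 6 Pon2-/- mice were analysed. Per the labels, the authors used FastQC 0.11.5, Trimmomatic 0.36 and STAR 2.5.3a with GRCm38.p5. Their methods name GENCODE M12 for gene models. The deposited counts are whole-number reads per gene, without normalization, 1 table per sample, whose column is not named in the file. Smart-seq2 carries no strand. Samples were grouped by their genotype label. Of the cell type markers listed, 2 are not reported here. The members and gene lists were chosen with earlier results of these data known. Named outside the members were Pon2, in each list the gene with the smallest p and the most abundant one, the nearest tested neighbours of Gnpda2, and the 5 most abundant genes with its pattern.

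Positions, symbols and exon lengths are from GENCODE M21 (GRCm38), which named 49326 of 49585 identifiers. Genotypes were compared with edgeR 4.0.16 in R 4.3.3 (TMM, filterByExpr, quasi-likelihood test, Benjamini-Hochberg adjustment over all 11848 tested genes), and called at an FDR below 0.05 with a log2 fold change beyond 1 in either direction. With edgeR, 24 genes passed, 15 higher and 9 lower in Pon2-/- HSCs. CPM use TMM-scaled totals. The two-sided exact permutation test used log2 CPM (prior count 2) over 924 relabellings, with a smallest p of 0.00216. Each mouse was treated as a replicate. A count of 0 was given an upper limit of 3 counts. PCR copies are not independent molecules, so this covers counting error only. Near copies were searched with minimap2 2.31-r1302 (at least 90% identity over 50% of a transcript). Alternatives were DESeq2 1.42.0 and its size factors, limma 3.58.1 voom, other filters and prior counts, a replicate block, a Y-linked covariate and leaving out each sample. The scripts were tested on simulated data.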

Additional observations from a re-analysis of the deposited data

Results flagged for a closer look

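By Dixon's ratio (above 0.625), 50 groups of 6 samples were checked for a sample far from the others. These were the 10 members, the genes listed above as named outside the members, and the summed deaminase and Gfpt levels. Marker genes such as Hbb-bt and Flt3 were not checked. For normally distributed values, such a check picks out about 1 group in 20 by chance. The CPM used here were not shown to be normally distributed, so this share may not hold for them. The check picked out 3. Mgat4b, the N-glycan branching gene, was at 10.2 CPM in WT replicate 4 and at 33.2 to 42.1 CPM in the other WT samples. Htatip2, a gene with the pattern of Gnpda2, was at 91.8 CPM in WT replicate 2 and at 24.3 to 31.4 CPM in the other WT samples. Pon2, the targeted gene, was at 1.16 CPM in Pon2-/- replicate 5 and at 28.4 to 33.1 CPM in the other Pon2-/- samples. None of the 10 hexosamine pathway genes had such a sample.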

How the results depend on the processing

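The count of members besides Gnpda2 called was 0 under every alternative, as was that of the other pathway genes and of genes within 1 Mb of Gnpda2. None of the 179 values of the log2 fold change of the 9 members under these alternatives had an unadjusted p below 0.05. Sizes and the signs of small differences were not stable. From 0.52, the log2 fold change of Gfpt2 went to 2.17 with voom and 1.62 with the replicate block, and to 0.064 to 1.04 without 1 sample. From 0.65, that of Amdhd2 went to 2.13 with voom (unadjusted p = 0.0872) and 1.20 with the replicate block, and to 0.38 to 1.03 without 1 sample. The log2 fold change of Gnpda1 was -0.061 with voom, that of Gfpt1 was 0.21 with voom and 0.14 with the replicate block, and that of Nagk was 0.10 with the replicate block and 0.039 with the Y-linked covariate. Leaving out 1 sample gave log2 fold changes of -0.20 to 0.19 for Gnpda1, -0.40 to 0.045 for Gfpt1, -0.040 to 0.38 for Gnpnat1, -0.45 to 0.57 for Pgm3, -0.997 to 0.17 for Uap1 and -0.19 to 0.27 for Nagk. In the exact permutation test it gave differences of mean log2 CPM of -0.16 to 0.27 for Gnpda1, -0.43 to 0.52 for Gfpt1, -0.19 to 0.51 for Gnpnat1, -1.61 to 0.70 for Pgm3 and -0.077 to 0.34 for Nagk. Pgm3 has no value with the filter of 10 reads in every sample of a genotype. The causes were not tested. The ratio of summed deaminase levels was 0.413 to 0.522 without 1 sample and 0.476 with DESeq2's size factors, and 0.434 over exon bases shared with no other gene (chosen after seeing the data).

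Over all tested genes, the 24 called genes became 8 with no filter beyond 1 read, 304 with DESeq2, 939 without its Cook's cutoff and 5 with the replicate block, and 20 to 28 without 1 sample. The replicate numbers were not shown to pair the samples, since the correlation of deviations of same-numbered samples was 0.000932 to 0.043. The block changed no call among the 9 members besides Gnpda2, the further pathway genes or the neighbours. With 6 mice per genotype and a biological coefficient of variation of 99.2%, the intervals of most members are wide.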
